A study of Homo sapiens with 6 samples.

Results

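The genes described here are the transcription factor gene NFE2L2, which encodes NRF2, its relative NFE2L1, the NRF2 repressor gene KEAP1, the quinone reductase gene NQO1 and 6 aldo-keto reductase genes, AKR1A1, AKR1B1, AKR1B10, AKR1C1, AKR1C2 and AKR1C3. They were picked by gene symbol, with earlier results of these data known, and these 10 genes are among 35993 in the deposited table. The gene lists below were chosen in the same way, so their shares beside those of all genes are descriptions. RNA was sequenced from MIA PaCa-2, an established human pancreatic cancer cell line, as 3 libraries left untreated and 3 libraries exposed for 48 h to rhCYGB at 4 µM. rhCYGB is recombinant human cytoglobin, a heme protein, made with a histidine tag in E. coli. Per the labels, cells were moved to DMEM with 1% FBS on the day before the protein was added, and the label of the untreated group is "Control", with no other protein or buffer named. The labels do not say whether libraries of a group came from separate cultures, so the p-values measure the spread between these libraries, which may be technical.

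NRF2 binds antioxidant response elements as a partner of a small MAF protein and switches on genes for glutathione synthesis, quinone reduction and carbonyl reduction. KEAP1 holds NRF2 and, with CUL3 and RBX1, has it marked for the proteasome. Oxidants and electrophiles modify KEAP1, and NRF2 protein then accumulates. NFE2L1 encodes NRF1, a related factor best known for raising proteasome genes when proteasome activity falls. Aldo-keto reductases use NADPH to reduce aldehydes and ketones, and several AKR1 genes are known NRF2 targets in human cells. The libraries measure mRNA, so the amounts of NRF2 and KEAP1 protein are not given by these data.

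Gene counts summed to between 34838399 and 42271299 per library. After a filter on low counts, 14728 genes were tested with edgeR's quasi-likelihood test, and p-values were adjusted over all of them by the Benjamini-Hochberg method. Levels are given as CPM, counts relative to the library size scaled by edgeR's TMM factors, or as the deposited FPKM where different genes are compared, since FPKM also accounts for transcript length. Of the cell line's markers, the keratin genes KRT8 and KRT18 and the vimentin gene VIM together stood at 11499 to 11905 CPM in untreated and 14341 to 15045 CPM in rhCYGB libraries. They did not move together. VIM, which held most of the sum, was called higher (log2 fold change 0.55), KRT8 was called lower (-0.81) and KRT18 was not called (0.04). The acinar markers PRSS1 and CPA1, the leukocyte marker PTPRC and the endothelial marker PECAM1 had 0 counts in every library. The 4 stellate cell and fibroblast markers summed to between 9.72 and 9.91 CPM in untreated and between 5.22 and 5.67 CPM in rhCYGB libraries. Of the 2 tested, COL3A1 was called lower (log2 fold change -5.01, from 3.99 to 0.119 CPM) and ACTA2 was not called (-0.08). COL1A1 had 6, 10 and 6 counts in untreated and 0 in all rhCYGB libraries. The part of these markers in the results was not tested. In bulk RNA, fewer cells of a kind and less RNA per cell cannot be told apart.

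Of the 10 genes, 9 passed the filter, and 7 of these were higher after rhCYGB at an adjusted p under 0.05, against 39.0% of all genes tested. One of these calls, that of AKR1A1, was lost under other scalings. AKR1B1 was lower, as were 38.6% of all genes, and AKR1C3 was not called. Calls in either direction covered 77.6% of all genes, so a call by itself says little. With a change of 2-fold or more required as well, 4 members were higher, NFE2L2, NFE2L1, AKR1C1 and AKR1C2, and AKR1B1 was lower, against 12.4% higher and 14.7% lower among all genes. The groups did not overlap in 8 of the 9 genes, against 79.5% of all genes tested. The median log2 fold change of the 9 was 0.48, and that of all genes was -0.0046.

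**Figure D1:**
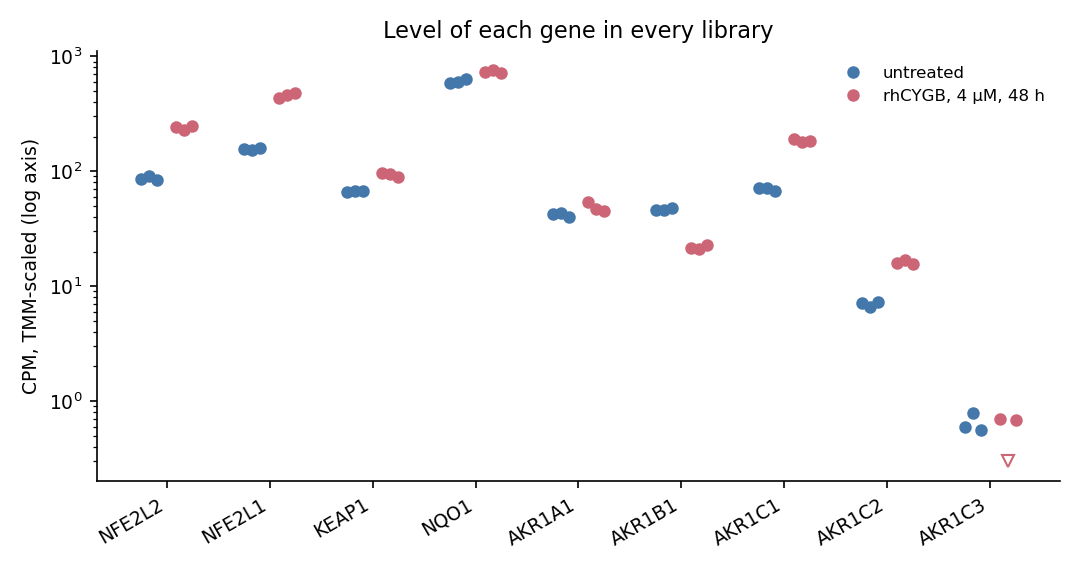
CPM on TMM-scaled library sizes (log axis) of 9 genes, with 1 point for each of the 3 untreated (blue) and 3 rhCYGB (red) libraries, and an open triangle for 1 rhCYGB library with 0 counts of AKR1C3. AKR1B10 had 0 counts in all libraries and is not drawn. The groups are apart in every gene shown but AKR1C3, and AKR1B1 is the one gene among them with its rhCYGB libraries below.

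NFE2L2 (gene number 4780, chr2:178095031-178129859 in the deposited positions, whose build is not named) stood at 85.5, 91.2 and 83.8 CPM in untreated libraries 1, 2 and 3. It stood at 243, 226 and 245 CPM in rhCYGB libraries 1, 2 and 3. The lowest rhCYGB library was thus above the highest untreated one. Its mRNA rose from a mean of 86.9 ± 3.89 CPM (SD, n = 3) to one of 238 ± 10.3 CPM, with a log2 fold change of 1.45 (SE, standard error, 0.0449, edgeR's adjusted p = 2.45e-13). Most of the NFE2L2 transcript counts, 84.7 ± 2.66% in untreated and 86.9 ± 6.59% in rhCYGB libraries, were assigned to NM_006164, which rose with a log2 fold change of 1.41 (SE 0.0694, edgeR's adjusted p = 8.62e-05 over 32577 transcripts, of which 29.9% were called). NM_001313902 was also called higher, with 19, 12 and 36 counts in untreated and 359, 93 and 138 in rhCYGB libraries. Its log2 fold change was 3.20 (SE 0.727, edgeR's adjusted p = 0.0236). The deposited position of the gene overlaps that of the microRNA gene MIR3128, which had 0 counts.

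NFE2L1 (gene number 4779, chr17:46125721-46138907 in the deposited positions) had 157, 154 and 159 CPM in untreated libraries and 434, 463 and 475 CPM in rhCYGB libraries. The groups did not overlap, and every rhCYGB library was higher. The log2 fold change was 1.55 (SE 0.0407, edgeR's adjusted p = 4.38e-14), from 157 ± 2.70 to 458 ± 21.3 CPM (mean ± SD, n = 3). All of its 3 listed transcripts rose, with log2 fold changes of 1.27, 1.53 and 1.88. After rhCYGB both factor genes stood at a mean of 79.3 FPKM.

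KEAP1 (gene number 9817, chr19:10596801-10614032 in the deposited positions), the adaptor that ties NRF2 to the CUL3 ubiquitin ligase, had 65.7, 67.2 and 66.8 CPM in untreated libraries. In rhCYGB libraries it had 96.2, 93.9 and 88.5 CPM. Each rhCYGB library lay above each untreated one. KEAP1 rose with a log2 fold change of 0.48 (SE 0.0437, edgeR's adjusted p = 7.34e-08), beside 1.45 for NFE2L2. Neither of its 2 listed transcripts was called, and their shares varied widely between libraries, at 48.4 ± 8.38% for NM_012289 in untreated and 53.3 ± 13.5% in rhCYGB libraries.

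The core of the antioxidant response element, TGACNNNGC, where N is any base, was searched on both strands from 250 bases before to 50 bases after the annotated starts in RefSeq (GRCh38.p14). Of 14 windows that belong to 9 of the genes, 1 held it, against 13.3% of 35116 windows of all genes. AKR1B10 was not searched. The window with matches lies at 1 of the KEAP1 starts and holds 2 of them. Their first bases as printed lie 54 and 31 bases before the start. It is shown because it is the one window of these genes with a match, at chr19:10502779-10502840 on the minus strand, with the matches in capitals, the second of which reads on the opposite strand.
KEAP1: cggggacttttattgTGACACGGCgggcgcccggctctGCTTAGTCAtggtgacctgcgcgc
A match of letters is a description of this window and shows no binding, and the windows do not reach distant elements. The deposited positions of KEAP1 given above are not those of GRCh38, so they cannot be set beside the position of this window.

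NQO1 (gene number 1728, chr16:69743304-69760463 in the deposited positions) reduces quinones with NADPH or NADH and is a standard readout of NRF2. It was the most abundant of the 10 genes in both groups, at 225 ± 12.5 FPKM in untreated and 245 ± 1.57 FPKM in rhCYGB libraries (mean ± SD, n = 3). On the CPM scale it had 584, 595 and 638 in untreated libraries and 736, 756 and 716 in rhCYGB libraries. The groups did not overlap. The log2 fold change was 0.28 (SE 0.0392, edgeR's adjusted p = 9.22e-06). With total counts in place of the TMM factors it was 0.12 and NQO1 was still called.

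The NQO1 count is divided in the deposited files among 4 transcripts that differ by 2 exons. NM_000903, called variant 1 in the files, holds all exons and is 2521 bases long. Variant 2 (NM_001025433, 2419 bases) lacks exon 5, variant 3 (NM_001025434, 2407 bases) lacks exon 4, and variant 4 (NM_001286137, 2305 bases) lacks both. The 2 exons are shown because the transcript counts differ by them. Exon 4 is 114 bases, or 38 codons, at chr16:69714964-69715077, and exon 5 is 102 bases, or 34 codons, at chr16:69713028-69713129, both on the minus strand of GRCh38 in GENCODE 29. Both are coding and keep the reading frame when skipped. The deposited positions of NQO1 given above are not those of GRCh38 and cannot be set beside these. The exon is in capitals, with 15 bases of the neighbouring exons of the mRNA in lower case on each side.
NQO1 exon 4: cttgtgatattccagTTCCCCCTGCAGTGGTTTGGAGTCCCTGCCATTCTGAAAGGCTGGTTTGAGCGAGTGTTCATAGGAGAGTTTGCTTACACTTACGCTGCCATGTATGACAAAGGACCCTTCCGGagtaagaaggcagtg
NQO1 exon 5: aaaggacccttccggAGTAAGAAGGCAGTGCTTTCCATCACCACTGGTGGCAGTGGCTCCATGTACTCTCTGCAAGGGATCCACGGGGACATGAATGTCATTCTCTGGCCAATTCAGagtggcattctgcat

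Of the 4 NQO1 transcripts, variant 3 had the largest fitted rise. It had 1326, 1616 and 1536 counts in untreated and 3924, 3536 and 4513 in rhCYGB libraries. Every rhCYGB library held more than 2 times the count of any untreated one. Variant 3 rose with a log2 fold change of 1.53 (SE 0.0712, edgeR's adjusted p = 7.04e-05 over all transcripts). Variant 1 carried most counts, 19739, 24324 and 23673 in untreated and 22735, 20972 and 21207 in rhCYGB libraries, and the groups overlapped. Its log2 fold change was 0.06 (SE 0.0553, edgeR's adjusted p = 0.523). Variant 2 had a log2 fold change of -0.36 (SE 0.104, edgeR's adjusted p = 0.0488), a call that leaving out any 1 library ended, and variant 4 one of 0.91 (SE 0.272, edgeR's adjusted p = 0.0578).

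The share of NQO1 transcript counts without exon 4, variants 3 and 4 together, was 6.61, 6.45 and 6.51% in untreated libraries and 15.1, 14.9 and 17.9% in rhCYGB libraries. All rhCYGB libraries were higher (exact two-sided permutation p = 0.1, the smallest that 3 against 3 libraries allow). The share without exon 5, variants 2 and 4, was 3.01 ± 0.202% and 2.52 ± 0.0713% (mean ± SD, n = 3), also without overlap (exact p = 0.1). These comparisons share variant 4, and their p-values were not adjusted. The share of variant 1 gave an exact permutation p = 0.1, and 0.35 after adjustment over the 7 genes with shares to compare. The assignment of reads to transcripts by the authors' tool is an estimate and no junction reads were analysed here.

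**Figure D2:**
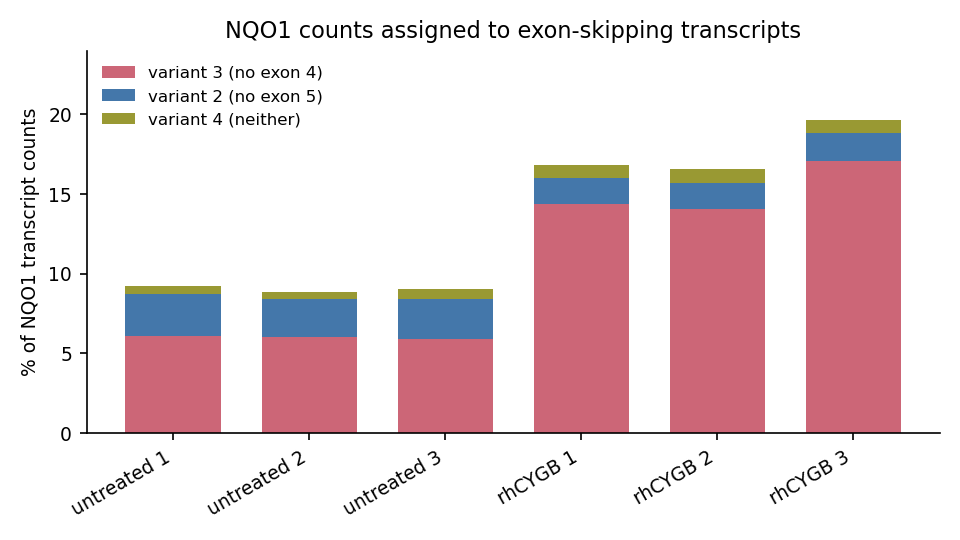
Share of the NQO1 transcript counts, in percent, assigned to the 3 transcripts that lack exon 4, exon 5 or both, in each of the 6 libraries, as stacked bars from 0. The remainder up to the full count is variant 1. Variant 3 holds 6.02 ± 0.103% in untreated and 15.2 ± 1.67% in rhCYGB libraries (mean ± SD, n = 3).

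AKR1A1 (gene number 10327, chr1:46016455-46035723 in the deposited positions), a broad aldehyde reductase, had 42.7, 43.0 and 40.1 CPM in untreated libraries. In rhCYGB libraries it had 53.5, 46.7 and 45.4 CPM. The rhCYGB libraries were all above the untreated ones, the first by the widest margin. The log2 fold change was 0.21 (SE 0.0619, edgeR's adjusted p = 0.00603), but the call was lost under other scalings. With total counts it was 0.04 (edgeR's adjusted p = 0.500), and the deposited FPKM values overlapped between the groups, at 27.0 ± 0.875 and 28.4 ± 2.50 (mean ± SD, n = 3). One of its 4 transcripts, NM_153326, was called higher with a log2 fold change of 0.51 (edgeR's adjusted p = 0.0173), and its share of the gene's transcript counts was 52.6 ± 1.85% in untreated and 68.9 ± 10.4% in rhCYGB libraries. That difference in share gave an exact permutation p = 0.1, the smallest possible, and 0.35 after adjustment over the 7 genes with shares to compare. The transcript call was lost without untreated library 1 (edgeR's adjusted p = 0.0637) or without untreated library 3 (edgeR's adjusted p = 0.0615).

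AKR1B1 (gene number 231, chr7:134127102-134143991 in the deposited positions) encodes aldose reductase, which turns glucose into sorbitol in the polyol pathway. It had 46.1, 45.8 and 48.1 CPM in untreated libraries and 21.6, 21.2 and 22.7 CPM in rhCYGB libraries. Every rhCYGB library was below every untreated one. AKR1B1 fell with a log2 fold change of -1.10 (SE 0.0534, edgeR's adjusted p = 4.20e-11), from 46.7 ± 1.26 to 21.8 ± 0.742 CPM (mean ± SD, n = 3). It was the one member called lower. Of its coding transcripts, NM_001628 fell by 1.11 on the log2 scale (SE 0.199, edgeR's adjusted p = 0.0101). The other, NM_001346142, had few counts and was not called (log2 fold change 0.18, edgeR's adjusted p = 0.936). AKR1B10 (gene number 57016, chr7:134212319-134226164 in the deposited positions), a retinal and aldehyde reductase known as an NRF2 target, lies beside it and had 0 counts in all 6 libraries. A floor of 3 counts corresponds to 0.0669 to 0.0902 CPM per library, so AKR1B10 mRNA was not detectable at this depth in either group. Intervals and floors of this kind cover counting error only.

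The AKR1C genes stand side by side on chromosome 10 and encode reductases of steroids, prostaglandins and lipid aldehydes. AKR1C1 is best known for inactivating progesterone, AKR1C2 for inactivating dihydrotestosterone and AKR1C3 for making testosterone and prostaglandin F. Their coding sequences in GENCODE 29, each 969 bases, are so alike that reads can be shared between them. AKR1C1 and AKR1C2 differ at 19 bases (98.0% identity), AKR1C1 and AKR1C3 at 83 (91.4%), and AKR1C2 and AKR1C3 at 87 (91.0%). Of all 100-base windows of the AKR1C1 coding sequence, 18.9% occur without a mismatch in AKR1C2. The stretch below is shown because it holds 10 of those 19 bases, and a read that falls on it can be told apart between them. Bases 103 to 162 of each coding sequence are printed, with the positions where AKR1C1 and AKR1C2 differ in capitals.
AKR1C1: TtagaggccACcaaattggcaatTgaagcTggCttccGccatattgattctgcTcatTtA
AKR1C2: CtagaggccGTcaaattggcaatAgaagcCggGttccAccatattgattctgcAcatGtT
AKR1C3: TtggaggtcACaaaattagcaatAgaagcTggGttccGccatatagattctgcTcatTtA

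AKR1C1 (gene number 1645, chr10:5005607-5025475 in the deposited positions) had 71.9, 72.2 and 67.5 CPM in untreated and 190, 180 and 184 CPM in rhCYGB libraries. The groups were far apart and all rhCYGB libraries were higher. The log2 fold change was 1.39 (SE 0.0414, edgeR's adjusted p = 1.63e-13). AKR1C2 (gene number 1646, chr10:5029967-5060225 in the deposited positions) had 7.11, 6.58 and 7.23 CPM in untreated and 15.9, 16.95 and 15.7 CPM in rhCYGB libraries. Its groups were also apart, with a log2 fold change of 1.21 (SE 0.0870, edgeR's adjusted p = 4.31e-09). AKR1C2 counts could include reads of AKR1C1, which had most of the AKR1C counts, so its value is uncertain.

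AKR1C3 (gene number 8644, chr10:5090958-5149878 in the deposited positions) was weakly expressed. It had 22, 35 and 23 counts in untreated libraries and 26, 0 and 25 in rhCYGB libraries. The second rhCYGB library stood apart with 0 counts, and the groups overlapped. The log2 fold change was -0.47 (SE 0.605, edgeR's adjusted p = 0.493), and without that library it was 0.09.

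The sum of the AKR1C genes does not depend on how reads were split among them. It was 79.6, 79.5 and 75.3 CPM in untreated and 207, 197 and 201 CPM in rhCYGB libraries. The sum rose with a log2 fold change of 1.37 (SE 0.0398, edgeR's adjusted p = 1.26e-13 with the sum in place of the single genes). AKR1C1 held 90.2 ± 0.551% of it in untreated and 91.7 ± 0.307% in rhCYGB libraries (mean ± SD, n = 3), without overlap. AKR1C2 held 8.94 ± 0.663% and 8.04 ± 0.501%, with overlapping groups. These are shares of counts, which do not account for transcript length. Within AKR1C2, the files put 551 counts of the first rhCYGB library on NM_001321027 and 26 on NM_001354, while the other rhCYGB libraries had 549 and 565 on NM_001354 and 0 on the former. The assignment of AKR1C2 counts to single transcripts thus differed between libraries of 1 group.

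**Figure D3:**
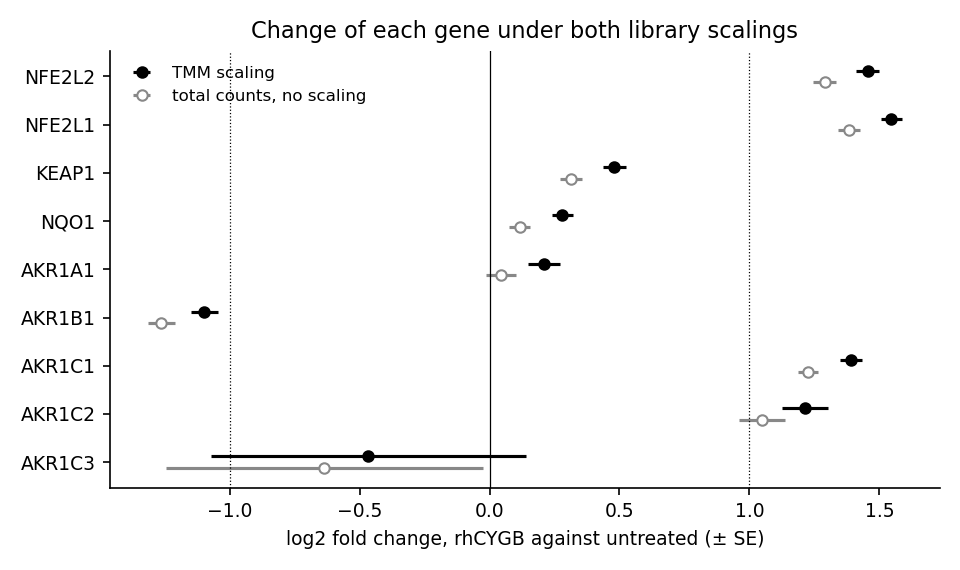
Log2 fold change of rhCYGB against untreated libraries with its standard error for 9 genes, with TMM scaling (filled) and with total counts and no scaling (open). The dotted lines mark 2-fold. NFE2L2, NFE2L1, AKR1C1 and AKR1C2 lie beyond 2-fold higher and AKR1B1 beyond 2-fold lower under both scalings, AKR1A1 is at 0.21 and 0.04, and total counts place all 9 values lower.

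Ordered by FPKM in untreated libraries, NQO1 at 225 was followed by NFE2L2 at 32.2 ± 1.48, NFE2L1 at 30.4 ± 0.730, AKR1B1 at 29.3 ± 1.24, AKR1A1 at 27.0 ± 0.875 and KEAP1 at 24.4 ± 0.424. Below these came AKR1C1 at 10.0 ± 0.298, AKR1C2 at 1.86 ± 0.0760 and AKR1C3 at 0.498 ± 0.0877 (mean ± SD, n = 3). NFE2L1 and AKR1B1 were neighbours whose libraries overlapped. After rhCYGB the factor genes NFE2L2 (79.3 ± 4.52) and NFE2L1 (79.3 ± 4.23) were again next to each other and overlapped, as did KEAP1 (30.4 ± 1.07) and AKR1A1 (28.4 ± 2.50). AKR1B1, at 12.4 ± 0.516 FPKM, moved from place 4 to place 7, below AKR1C1 at 23.5 ± 1.06. Of the 33 listed transcripts of these genes 27 were tested and 11 called, 9 higher and 2 lower, where 29.9% of all transcripts tested were called.

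Of 20 regulators and partners of NRF2 and NRF1, 10 were higher and 6 lower, where 39.0% of all genes tested were higher and 38.6% lower. The median log2 fold change was 0.21, against -0.0046 over all genes. The small MAF genes, whose proteins pair with NRF2 on DNA, all rose. MAFF had 30.4, 31.0 and 28.7 CPM in untreated and 243, 248 and 234 CPM in rhCYGB libraries. That is a log2 fold change of 3.01 (SE 0.0446, edgeR's adjusted p = 1.91e-16), while MAFG rose by 1.95 and MAFK by 1.07 on the log2 scale. BACH1, a repressor that competes for the same elements, rose by 1.04, from 36.3 ± 0.871 to 74.4 ± 1.35 CPM. SQSTM1, which encodes p62, an autophagy receptor that binds KEAP1, rose by 1.95, from 665 ± 52.7 to 2576 ± 64.5 CPM.

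The ubiquitin ligase that acts on NRF2 through KEAP1 showed a split between its parts. CUL3, its scaffold, had 102, 97.0 and 102 CPM in untreated and 44.1, 46.3 and 46.4 CPM in rhCYGB libraries. It fell with a log2 fold change of -1.14 (SE 0.0443, edgeR's adjusted p = 3.18e-12), and RBX1, its RING subunit, fell with one of -1.31 (edgeR's adjusted p = 5.14e-11). KEAP1 itself rose, as given above. NFE2L3, a relative of both factors, fell by 0.94 on the log2 scale.

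Of the 32 other NRF2 target genes 30 were tested. Of these 15 (50%) were higher, against 39.0% of all genes, and 11 (36.7%) were lower, a share near the 38.6% of all genes. The median log2 fold change was 0.06, which became -0.10 with total counts, where that of all genes was -0.17. HMOX1, heme oxygenase, had 11.2, 11.8 and 9.02 CPM in untreated and 95.8, 98.0 and 91.4 CPM in rhCYGB libraries, without overlap, and it rose by 3.16 on the log2 scale. OSGIN1 (log2 fold change 3.16), TRIM16 (2.71), GCLC (2.51), the cystine transporter gene SLC7A11 (1.63) and SRXN1 (1.01) also rose. The value of TRIM16 is uncertain, since TRIM16L is a close copy of part of it. GCLC and GCLM encode the catalytic and the modifier subunit of the enzyme that starts glutathione synthesis, and they differed. GCLC had 28.2, 28.7 and 30.3 CPM in untreated and 166, 171 and 161 CPM in rhCYGB libraries, whereas GCLM had 289, 297 and 281 CPM and then 261, 247 and 282 CPM. The GCLM groups overlapped, and its log2 fold change was -0.13 (edgeR's adjusted p = 0.0148), a call that was lost without untreated library 2 (edgeR's adjusted p = 0.0626) or without rhCYGB library 2 (edgeR's adjusted p = 0.0735).

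Targets that supply NADPH or reduce thioredoxin went in both directions. TXNRD1 rose by 0.66 on the log2 scale and ME1 by 0.16, a call that ME1 lost with total counts (-0.0064). PGD, which supplies NADPH, fell by 0.48 (edgeR's adjusted p = 3.33e-09), from 442 ± 8.91 to 316 ± 1.95 CPM, without overlap. CBR1, CBR3 and ALDH3A1, which remove carbonyl compounds, fell by 1.05, 1.39 and 1.16 on the log2 scale. The centred log2 CPM of NFE2L2 over the 6 libraries was compared with that of 97 genes of the lists. The other members were not among these candidates. The nearest candidate was SLC7A11 (Euclidean distance 0.25), followed by the ferritin heavy chain gene FTH1 (0.25) and FBXW7 (0.37). Their log2 fold changes were 1.63 for SLC7A11, 1.63 for FTH1 and 1.16 for FBXW7, beside 1.45 for NFE2L2. With 2 groups of close libraries the distance mostly restates these fold changes and shows no further likeness.

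The other aldo-keto reductase genes that were called were all lower. Of 10 other aldo-keto reductase genes, 6 were tested, 0 were higher and 4 were lower, against 39.0% and 38.6% of all genes tested. The median log2 fold change was -1.12, against -0.0046 over all genes. AKR7A2, which reduces succinic semialdehyde, had 85.2, 85.1 and 85.2 CPM in untreated and 31.9, 32.9 and 28.8 CPM in rhCYGB libraries. It fell with a log2 fold change of -1.45 (SE 0.0524, edgeR's adjusted p = 1.39e-12). The potassium channel beta subunit genes KCNAB2 (-1.14) and KCNAB3 (-1.09) and the weakly expressed AKR7L (-1.60) fell as well. AKR7A3 (-0.87, adjusted p = 0.0695) and AKR1E2 (-0.07, adjusted p = 0.620) were not called in edgeR's test, and AKR1B15, AKR1C4, AKR1D1 and KCNAB1 had 0 counts. Of 15 aldehyde dehydrogenase and carbonyl reductase genes, 13 were tested, 2 were higher and 9 lower, against the same shares of all genes, with a median of -0.60. CBR1, CBR3 and ALDH3A1, all lower, are also on the list of NRF2 target genes and so count in both lists. ALDH1A1, a retinal dehydrogenase, fell by 1.28 on the log2 scale from 1474 ± 50.03 to 607 ± 27.5 CPM, and CBR4 fell by 1.34. ALDH1A3 rose by 0.27 and DCXR by 0.20, and the call of DCXR was lost with total counts.

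The proteasome subunit genes are known targets of NRF1. Of 31 tested, 6 were higher and 19 lower, against 39.0% higher and 38.6% lower among all genes, and with total counts 4 were higher and 25 lower. The median log2 fold change was -0.25, against -0.0046 over all genes. PSMB2, a subunit of the core, had 180, 182 and 181 CPM in untreated and 90.2, 87.5 and 88.0 CPM in rhCYGB libraries. Its log2 fold change was -1.03 (SE 0.0361, edgeR's adjusted p = 1.02e-12), and PSMD12 and PSMA2 fell by 0.70 and 0.65 on the log2 scale. The largest rises, those of PSMD7 (0.38), PSMC4 (0.38) and PSMD4 (0.37), were small.

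**Figure D4:**
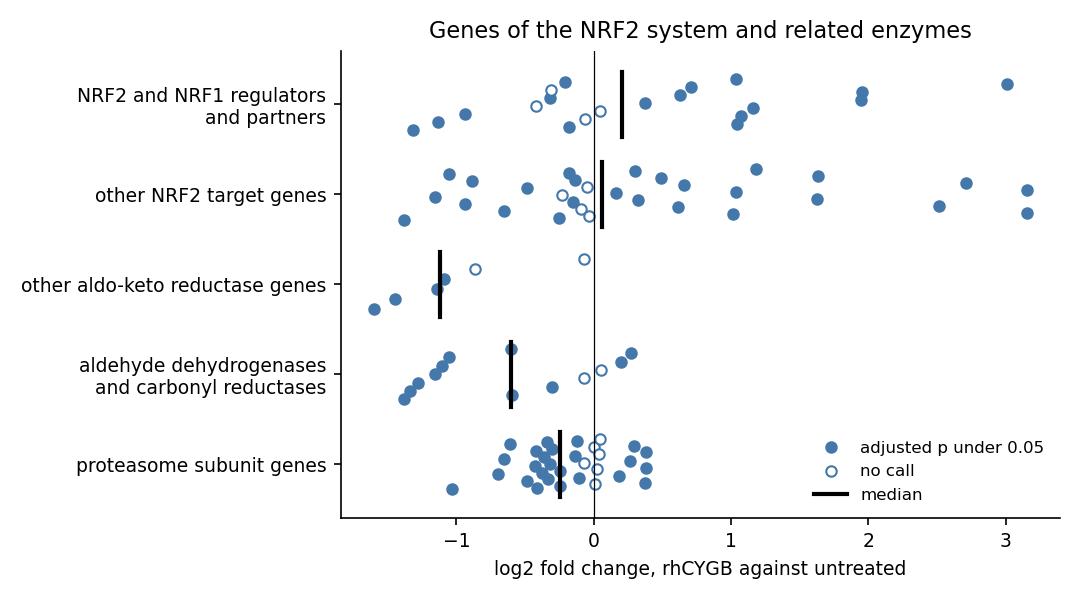
Log2 fold change of rhCYGB against untreated libraries for each tested gene of 5 lists, filled where the adjusted p was under 0.05 and open where it was not, with a black line at the list's median; vertical position within a list has no meaning. The medians are 0.21, 0.06, -1.12, -0.60 and -0.25 from top to bottom, and the NRF2 lists spread to both sides of 0.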

How the data were processed

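RNA-seq libraries of MIA PaCa-2 cells, 3 untreated and 3 given rhCYGB, were grouped by their labels. The authors prepared them with a stranded mRNA kit and used FastQC 0.11.7, HISAT2 2.1.0 and StringTie 2.1.3b, per the submitters' processing notes. No file names its genome build, and those notes list mm10 although the cells are human. The counts per gene and per transcript deposited by the authors are raw whole numbers. FPKM per gene, as deposited, is relative to transcript length and depth. Of the other deposited columns, 18 were not used (TPM in both tables and FPKM per transcript). Strand use in counting is not given in the sources used here.

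Counts were tested with edgeR 4.0.16 in R 4.3.3 (filterByExpr, TMM, glmQLFit and glmQLFTest, no block), with Benjamini-Hochberg adjustment and a threshold of 0.05. Alternatives were DESeq2 1.42.0, limma 3.58.1 on log2(FPKM + 1) and log2(FPKM + 0.1), other scalings and filters, a replicate block and leaving out each library. The gene tests of edgeR, DESeq2 and limma (on CPM) were checked on simulated counts in which 200 genes changed. In the data 77.6% of genes were called, so that check does not cover the choice of scaling. The transcript fits, the replicate block and the permutation tests were not simulated. Libraries of a group differed by more than counting error. The members and lists were chosen with earlier results of these data known. Named were all members, the 3 largest rises and falls of each list with a mean of at least 1 CPM in the higher group, further regulator and target genes fixed by name, all other aldo-keto reductases and the 3 genes nearest to NFE2L2. One gene that this rule names is not reported here. MAFK, TRIM16L and PGD were named after their values were seen. Sequences came from GENCODE 29 and RefSeq.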

Additional observations from a re-analysis of the deposited data

How the results depend on the processing

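The directions and calls of NFE2L2, NFE2L1, KEAP1, NQO1, AKR1B1, AKR1C1 and AKR1C2 were kept under all 16 alternatives run on each, and that of the AKR1C sum under 13, with AKR1C2 under 2-fold (0.81) in limma on log2(FPKM + 1). Total counts and upper-quartile factors moved the median log2 fold change of all genes to -0.17 and -0.15, and limma on log2(FPKM + 0.1) moved it to -0.15. The call of AKR1A1 was lost with upper-quartile factors (0.0691), total counts (0.0448), limma on log2(FPKM + 1) (0.0657) and on log2(FPKM + 0.1) (0.0677), with adjusted p between 0.00214 and 0.500 over its alternatives. In these same settings 1 aldehyde dehydrogenase or carbonyl reductase gene was higher in place of 2. A 2-fold limit left 3998 of 11427 genes. Leaving out 1 library gave AKR1C3 between -0.88 and 0.0869, the value above 0 being that without rhCYGB library 2 and not called. It gave KEAP1 NM_203500 between -0.0103 and 0.44, and between 7 and 10 member transcripts called in place of 11, the fewest without untreated library 1. ME1 turned to -0.0064 with total counts, and to -0.00532 and -0.00568 with limma. NQO1 NM_000903 turned to -0.0290 with total counts. The replicate numbers did not pair the libraries (correlations of deviations -0.048, 0.0072 and 0.0055). With the replicate number as a block, 5716 genes were higher and 5635 lower, and AKR1C2 NM_001354 turned to -0.0860. Among named genes and transcripts, 727 of the recomputed values kept direction and call, 15 gained a call, 18 lost one and 6 changed sign. The causes were not tested. AKR1B10 was not detectable at this depth.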
